A study of Rattus norvegicus with 15 samples.

Results

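The 10 genes described here are grouped as pan-myeloid genes, which macrophages and related cells use for signalling and for breaking down what they have taken up. Some of them are also used by other blood cells. The genes are Csf1r, Cd14, Ptprc, Tyrobp, Fcer1g, Aif1, Ctss, Lyz2, Cd68 and Laptm5. They were taken as the probes that carry 1 of these names in the array files. This gave 15 of the 45598 probes and 10 of the 36180 genes and transcripts on the array. The genes were chosen with earlier results of these data known, so their counts beside the shares over all features are a description. Of the 10 genes, 9 were bright enough to be tested, and Ptprc was not.

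Myeloid cells sense their surroundings through surface receptors, and many of these have no signalling tail of their own but pair with the short adaptor proteins Tyrobp and Fcer1g, which pass the signal on through kinases of the Src and Syk families. What the cells engulf is degraded in lysosomes that carry, beside the enzymes of every cell, products that are abundant in phagocytes, such as cathepsin S, lysozyme and CD68. In the liver the resident macrophages are the Kupffer cells, which sit in the sinusoids next to the hepatocytes. Hepatocytes themselves are known to make CD14 and have lysosomes of their own.

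Hepatocytes of adult female Wistar rats were stained with the DNA dye Hoechst33342 and sorted by flow cytometry into 2c, 4c and 8c cells, the DNA contents of a diploid cell outside S and G2 phase and of its multiples, and the series compares the transcriptomes of these ploidy classes. RNA of each fraction was amplified, labelled with Cy3 and hybridised to a one-colour Agilent rat array. There were 5 independent experiments, each with 1 array per fraction, so 15 arrays and n = 5 per group, from rats of 12, 14, 6, 5 and 6 weeks in experiments 1 to 5. The labels give no treatment or genotype, and they do not state how many animals an experiment pooled or which gates or markers set other liver cells aside.

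By the flag of the extraction software, 39.6% to 47.4% of the probes on an array were well above background, and the number of arrays limits the precision. A level below is the log2 of the processed intensity minus the 75th percentile of its array, taken over 16211 probes with that flag on each array, so that 0 is a bright probe. The arrays carried hepatocyte RNA by the markers of that cell: all 12 hepatocyte markers were well above background on every array, with a log2 summed level between 9.49 and 10.15. Pancreatic acinar transcripts were abundant on 6 arrays (2c and 8c of experiment 1, the 3 arrays of experiment 2, and 8c of experiment 3), and results are also given without these.

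Most of the pan-myeloid genes were highest in the 2c fraction. Of the 9 tested genes, 6 fell from 2c to 8c and 0 rose (limma with the experiment as a block, Benjamini-Hochberg adjusted p under 0.05 over all 17055 tested features); over all features 1.56% were lower and 0.809% higher. The 6 genes were Ctss, Aif1, Fcer1g, Tyrobp, Cd68 and Lyz2, with fitted differences between -4.12 and -1.67 on the log2 scale. Their 95% intervals were -5.65 to -2.59 for Ctss, -5.46 to -2.39 for Aif1 and -4.27 to -1.61 for Fcer1g. For Tyrobp, Cd68 and Lyz2 they were -3.66 to -1.49, -2.43 to -0.94 and -2.36 to -0.98. Ctss entered the test only through 2c, since it was well above background on 2 of the 10 other arrays and a tested feature needed 5 of all 15, so its lower level outside 2c is partly set by that filter; of the 8 other tested genes, 5 fell. Laptm5 and Csf1r had lower 8c than 2c levels in all 5 experiments but did not pass, and Cd14 had levels between -0.56 and 0.46 on every array. In all, 8 of the 9 genes were lower in 8c in each of the 5 experiments, as were 8.07% of all features, and for 5 of the 9 every 2c array was above every 8c array, as for 0.885% of all features. With the 75th percentile taken over all probes, the split over all features changed from 266 lower and 138 higher to 192 and 225. The median log2 difference of the 9 genes was -1.68 (also without Ctss, and with each dim gene at its bound, described below), against -0.02 over all features, and per experiment it was -3.23, -1.33, -1.88, -0.73 and -2.03 in experiments 1 to 5. In these bulk samples, fewer cells of a type and less RNA per cell cannot be told apart.

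The calls depended on the processing and on single experiments. With normexp background correction 0 of the 9 genes passed for 8c against 2c (lowest limma adjusted p 0.0581; 8 with an unadjusted p under 0.05) and the median difference was -0.92. Without experiment 3 or 5 the count was 0 too (limma; 8 and 7 unadjusted), without experiment 1 or 2 it was 1, and without experiment 4 it was 6. Without the experiment as a block, 0 of the 9 genes passed in any comparison (lowest limma adjusted p for 8c against 2c 0.0512, Aif1; 8 of the 9 had an unadjusted p under 0.05), while 33 of all features were lower in 8c. Arrays lay on 2 slides, the second holding experiments 4 and 5 and the 8c array of experiment 3. Within the first slide the median difference of the 9 genes was -2.16 and within the second -1.24, with 0 genes and 0 of all features past the limma threshold in either. Unadjusted, 6 of the 9 genes had a p under 0.05 within the first slide and 4 within the second.

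**Figure D1:**
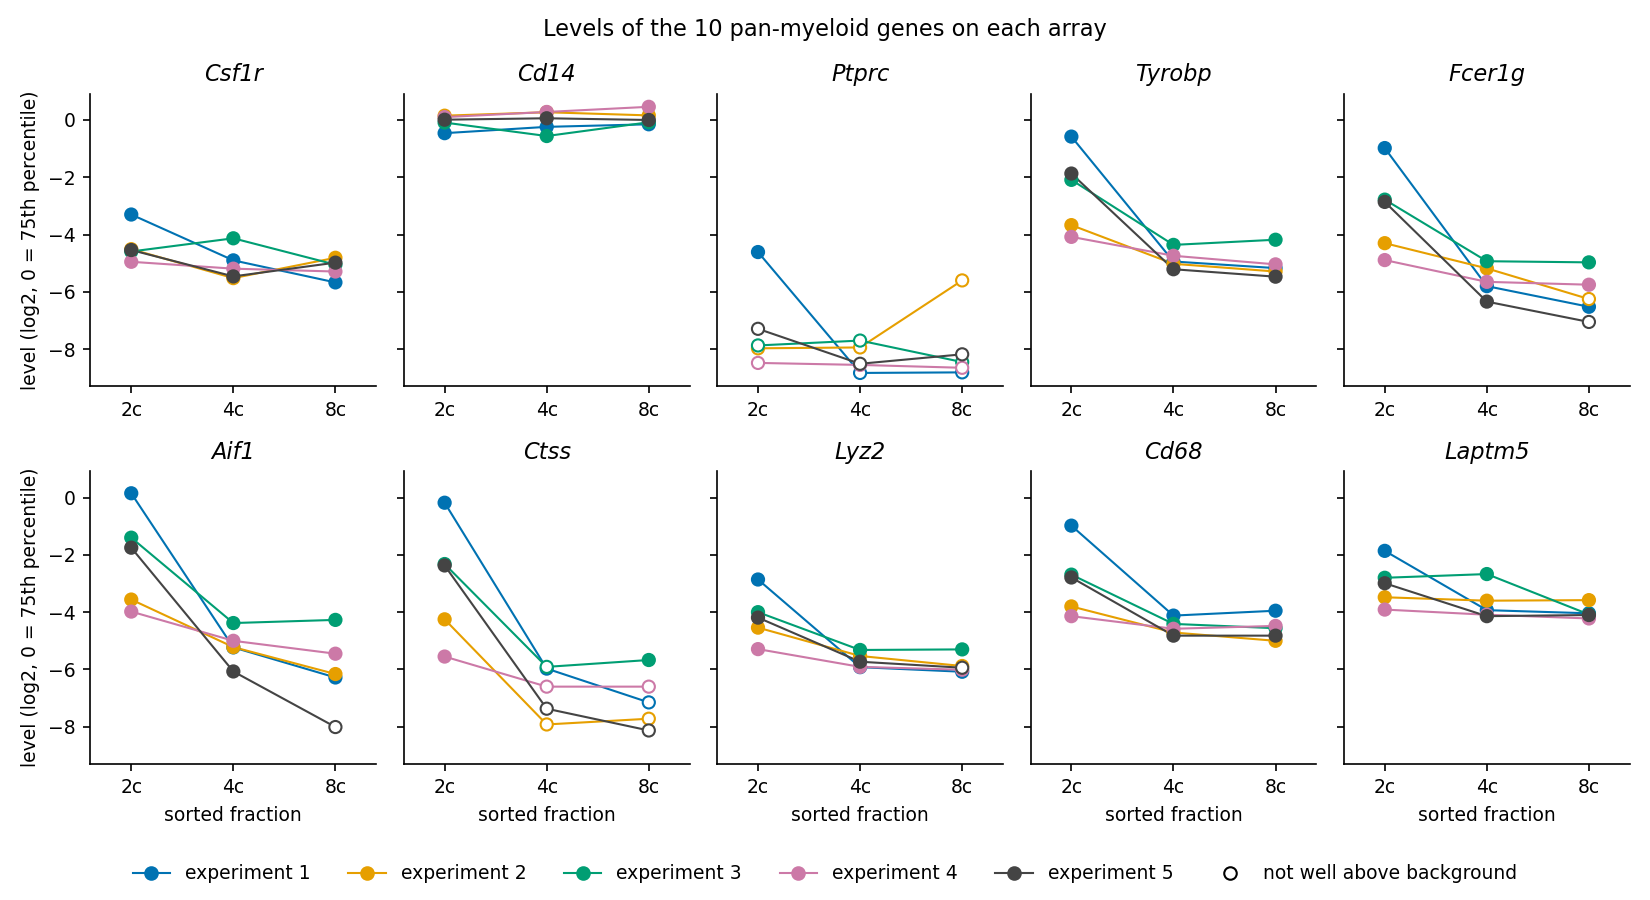
Level of each gene on every array (y axis, log2, 0 is the 75th percentile of the array) by sorted fraction (x axis), with 1 line per experiment and open points where the probe was not well above background. Tyrobp, Fcer1g, Aif1, Ctss and Lyz2 were higher on every 2c array than on every 8c array, and the 2c array of experiment 1 was the highest of all 15 for 8 of the 9 tested genes; Cd14 stayed between -0.56 and 0.46.

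Among the surface receptors, Csf1r encodes the receptor for CSF1 and IL-34, on which macrophages depend for survival. Its tested probe gave levels of -3.30, -4.51, -4.59, -4.95 and -4.54 on the 2c arrays of experiments 1 to 5. On the 4c arrays the levels were -4.90, -5.52, -4.13, -5.19 and -5.46, and on the 8c arrays -5.67, -4.81, -5.05, -5.29 and -4.98. The 2c array of experiment 1 stood above all others, and the groups overlapped. The 8c level was lower than the 2c level by a log2 difference of -0.78 (SE 0.33, 95% interval -1.50 to -0.06, lower in 5 of 5 experiments), which did not pass (limma adjusted p = 0.29); without experiment 1 the difference was -0.38. This probe spans 702 bases of chromosome 18 (57105231 to 57105932 in rn4), more than its 60 bases of sequence, and a second Csf1r probe was above background on 0 arrays.

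Cd14 encodes the lipopolysaccharide co-receptor that hands its ligand to TLR4. Its levels were -0.46, 0.15, -0.09, 0.10 and 0.01 on the 2c arrays. On the 4c arrays they were -0.24, 0.27, -0.56, 0.28 and 0.06, and on the 8c arrays -0.15, 0.16, -0.08, 0.46 and 0.00. No fraction was high or low throughout, and the probe (chromosome 18, 29374990 to 29375049 in rn4) was well above background on all 15 arrays. The 8c against 2c difference was 0.14 (SE 0.11, adjusted p = 0.607 with limma), with a 95% interval of -0.10 to 0.37. Its 2c level was lowest in experiment 1, where that of the other 8 tested genes was highest.

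Ptprc encodes CD45, the tyrosine phosphatase on the surface of nearly all leukocytes. Its single probe (chromosome 13, 51246523 to 51246582 in rn4) was well above background on 1 of the 15 arrays, the 2c array of experiment 1, at -4.61. On the other 2c arrays it read -7.97, -7.87, -8.48 and -7.29. The 4c readings lay between -8.83 and -7.70 and the 8c readings between -8.81 and -5.60, none of them well above background, and no fold is given.

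The adaptors Tyrobp (DAP12) and Fcer1g (the Fc receptor gamma chain) carry the activation motifs through which unlike receptors signal. For Tyrobp the 2c levels were -0.58, -3.67, -2.09, -4.08 and -1.87 in experiments 1 to 5. The 4c levels were -4.94, -5.02, -4.36, -4.74 and -5.21, and the 8c levels -5.17, -5.29, -4.18, -5.04 and -5.47. Every 2c array was above every 4c and 8c array, by little in experiment 4 and by most in experiment 1. The 8c mean of Tyrobp was 5.95-fold below its 2c mean (change of -2.57 on the log2 scale, SE 0.49; limma adjusted p = 0.024; lower in 5 of 5 experiments). It was spotted 10 times on each array, with a median SD between spots of 0.17 against an SD of 1.42 between the 2c arrays, and was well above background on all 15 arrays. Its probe lies at chromosome 1, 85369110 to 85369169 in rn4. A second probe, named for Tyrobp but printed on the opposite strand, was above background on 1 array only.

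Fcer1g had 2c levels of -0.98, -4.30, -2.78, -4.89 and -2.86. Its 4c levels were -5.80, -5.18, -4.93, -5.65 and -6.34, and its 8c levels -6.52, -6.25, -4.97, -5.75 and -7.05. The 2c and 8c groups did not overlap, and 3 of the 5 8c arrays were well above background. The 8c mean of Fcer1g was thus below the 2c mean by at least 7.03-fold (fitted change -2.94 on the log2 scale, SE 0.60; limma adjusted p = 0.0317; lower in 5 of 5 experiments). Such a bound sets each array on which the probe was not well above background to the higher of its own level and the lowest level among probes that were. The probe lies at chromosome 13, 87119567 to 87119626 in rn4.

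Aif1 encodes IBA1, a calcium-binding protein of the cytosol that bundles actin in moving and engulfing macrophages. On the 2c arrays its brighter probe (chromosome 20, 3716266 to 3716325 in rn4) gave 0.15, -3.56, -1.40, -3.98 and -1.75. On the 4c arrays it gave -5.23, -5.22, -4.38, -5.00 and -6.07, and on the 8c arrays -6.28, -6.16, -4.27, -5.45 and -8.01. The 2c levels lay above all others, and within the 8c group experiment 5 was lowest, the 1 array of 5 not well above background. From 2c to 8c Aif1 fell at least 12.2-fold (fitted change -3.92 on the log2 scale, SE 0.69; limma adjusted p = 0.0165; lower in 5 of 5 experiments). A second probe, which was not tested because 1 probe stood for each gene was well above background on 5, 3 and 1 of the 5 arrays of 2c, 4c and 8c, so most of its 8c readings are near background; it read lower in 8c in 5 of 5 experiments.

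The sequences of this second, untested Aif1 probe and of the tested Ctss probe are shown, since they define which transcripts these readings refer to. Both have 60 bases and are given 5′ to 3′ as printed in the array files, and both are all in lower case, as no stretch is singled out. The Aif1 probe spans 582 bases of the genome (chromosome 20, 3715562 to 3716143 in rn4), so its sequence is not contiguous there, and the Ctss probe lies at chromosome 2, 190466474 to 190466533.
Aif1 probe: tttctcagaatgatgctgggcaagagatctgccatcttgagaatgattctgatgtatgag
Ctss probe: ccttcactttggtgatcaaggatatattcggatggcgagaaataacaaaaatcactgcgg

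Of the lysosomal products, Ctss encodes cathepsin S, the protease that trims the invariant chain of MHC class II in antigen-presenting cells. Its levels were -0.18, -4.25, -2.32, -5.55 and -2.37 on the 2c arrays. On the 4c arrays they were -5.97, -7.92, -5.91, -6.60 and -7.37, and on the 8c arrays -7.15, -7.72, -5.67, -6.60 and -8.13. All 5 2c arrays were well above background but only 1 array each of 4c (experiment 1) and 8c (experiment 3), so most of the lower values are readings near background, and the gene was tested only because of its 2c arrays. From 2c to 8c Ctss fell at least 11.1-fold (fitted change -4.12 on the log2 scale, SE 0.69; limma adjusted p = 0.0132; lower in 5 of 5 experiments).

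Lyz2 encodes the macrophage lysozyme, which cleaves bacterial cell walls. Its tested probe read -2.86, -4.54, -4.0, -5.29 and -4.19 on the 2c arrays. It read -5.92, -5.53, -5.32, -5.91 and -5.73 on the 4c arrays and -6.08, -5.88, -5.30, -6.01 and -5.94 on the 8c arrays. The lowest 2c array, that of experiment 4, was level with the top of the 8c group, where the -5.30 of experiment 3 stood apart. Its 8c mean was at least 3.18-fold below its 2c mean (fitted change -1.67 on the log2 scale, SE 0.31; limma adjusted p = 0.0217; lower in 5 of 5 experiments), with 3 of 5 8c arrays well above background. The tested probe (chromosome 7, 56607738 to 56607797 in rn4) is also assigned to the paralogue Lyc2 by the array files, so the 2 transcripts cannot be told apart by it; the 1 probe named for Lyc2 was well above background on 0 of 15 arrays. A second Lyz2 probe, not tested, was well above background on 3 of the 5 2c arrays and on 0 of the 4c and 8c arrays. It read lower in 8c in 5 of 5 experiments, with all its 8c readings near background. The third Lyz2 probe, assigned to Lyz2 alone, was above background on the 2c array of experiment 1 only, at -5.75.

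Cd68 encodes macrosialin, a glycoprotein of the lysosome membrane of macrophages. Its 2c levels were -0.98, -3.80, -2.69, -4.14 and -2.79. Its 4c levels were -4.12, -4.71, -4.41, -4.58 and -4.82, and its 8c levels -3.95, -5.00, -4.56, -4.48 and -4.82. The groups overlapped, because the 8c array of experiment 1 (-3.95) was above the 2c array of experiment 4 (-4.14), although each experiment had its own 8c level below its 2c level. From 2c to 8c Cd68 fell 3.21-fold (change of -1.68 on the log2 scale, SE 0.34; limma adjusted p = 0.0293; lower in 5 of 5 experiments), and it was well above background on all 15 arrays. The probe lies at chromosome 10, 56481726 to 56481785 in rn4.

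Laptm5 encodes a lysosomal membrane protein of blood cells that directs receptors to degradation. Its levels were -1.86, -3.48, -2.80, -3.91 and -2.99 on the 2c arrays. They were -3.93, -3.60, -2.67, -4.09 and -4.14 on the 4c arrays and -4.04, -3.58, -4.08, -4.22 and -4.10 on the 8c arrays. The groups overlapped, and the 4c array of experiment 3 was above its own 2c array. The 8c against 2c difference was -0.99 (SE 0.32, 95% interval -1.71 to -0.28, lower in 5 of 5 experiments) and did not pass (limma adjusted p = 0.17). Laptm5 was well above background on all 15 arrays, with a median SD of 0.28 between its 10 spots and of 0.78 between the 2c arrays. Its probe lies at chromosome 5, 149797871 to 149797930 in rn4.

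**Figure D2:**
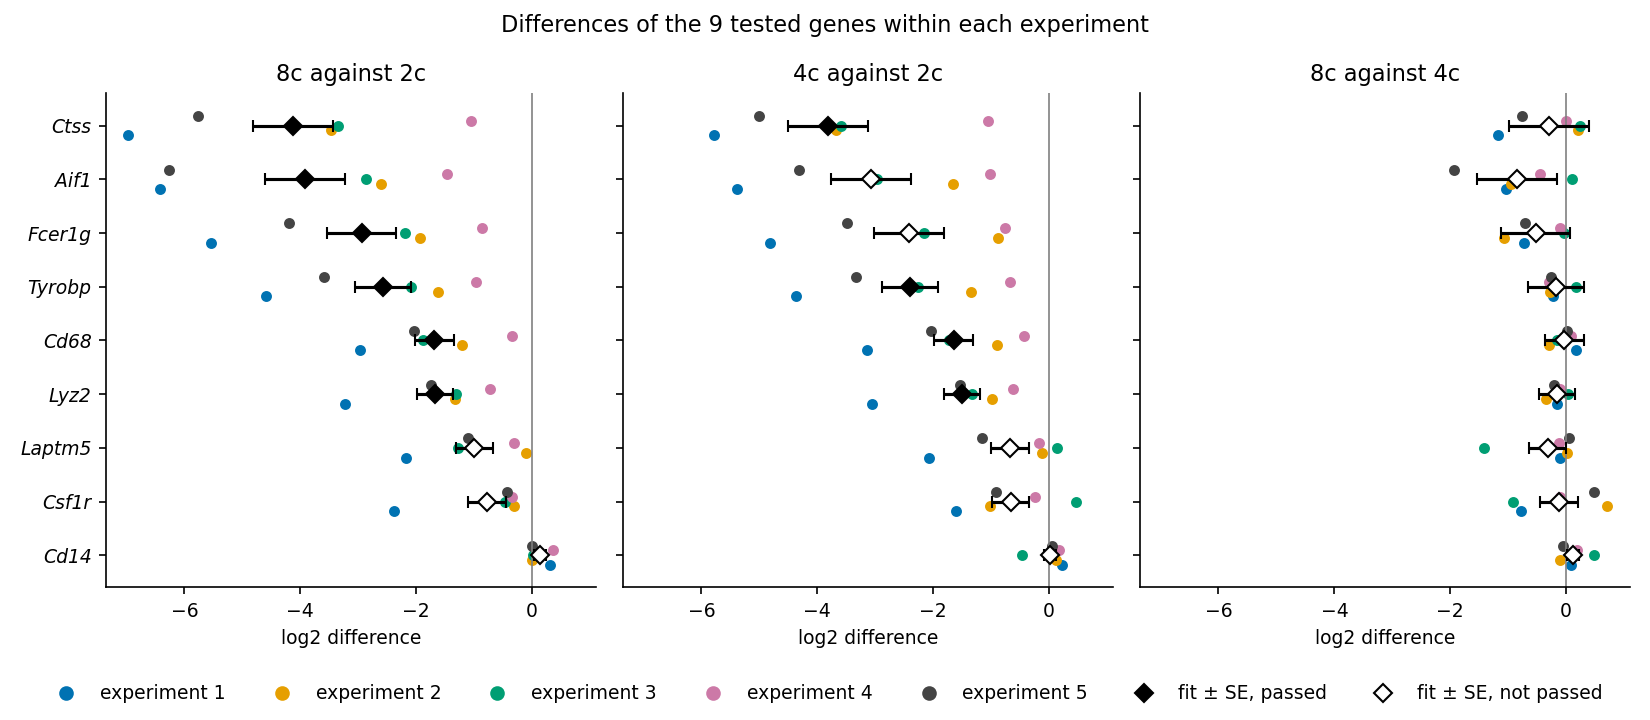
Log2 difference (x axis) of the 9 tested genes (y axis) for the 3 comparisons; coloured points are the experiments and diamonds the fitted difference with its SE, filled where the gene passed. The fitted differences from 2c of the genes other than Cd14 lay to the left of 0, down to -4.12 for Ctss (most of its 4c and 8c readings being near background), while Cd14 was at 0.14 for 8c, and those for 8c against 4c lay closer to 0.

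In 4c, too, part of the genes were below 2c. Of the 9 tested genes, 4 passed with a lower level in 4c and 0 with a higher one. Over all features 1.01% were lower and 0.264% higher. Among the 4, Ctss was tested only because of 2c, with 1 of 5 4c arrays well above background, so the filter partly sets its call. Ctss was at least 10.8-fold lower (fitted log2 difference -3.82, SE 0.69), Tyrobp 5.26-fold (-2.40, SE 0.49), Cd68 3.13-fold (-1.65, SE 0.34) and Lyz2 2.84-fold (-1.51, SE 0.31). The limma adjusted p values were 0.0378, 0.0492, 0.0495 and 0.04998, so 3 of the 4 were at the edge of the threshold. Aif1 (-3.07) and Fcer1g (-2.42) missed it, at adjusted p = 0.0688 and 0.0899, although their 2c and 4c groups did not overlap. The groups were apart for 5 of the 9 genes, as for 0.938% of all features, and 6 of the 9 were lower in 4c in each experiment, as were 8.61%. The median of the 9 genes was -1.65, against -0.03 over all features. Without the 2c array of experiment 1, left out after the data were seen, Lyz2 alone passed in 4c, while all 6 genes still passed in 8c.

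Between 8c and 4c, 0 of the 9 genes passed in either direction (0.0117% of all features were lower and 0.639% higher), and 0 had an unadjusted p under 0.05 with limma. The median difference was -0.18, against 0.0042 over all features. Of the 45 readings of these genes in each fraction, 41 in 4c and 36 in 8c were well above background. Aif1 had a fitted difference of -0.85 (SE 0.69, 95% interval -2.39 to 0.68), which was -0.54 with its dim 8c array of experiment 5 at the bound. That interval includes 0, so the direction of this difference was not resolved with 5 experiments.

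Which 2c array was high was nearly the same for each gene. For 8 of the 9 tested genes, the exception being Cd14, the 2c array of experiment 1 was the highest of all 15 arrays and that of experiment 4 was the lowest 2c array. The 2c levels of Ctss, Lyz2, Fcer1g, Cd68, Laptm5 and Aif1 followed the same order of experiments from the highest to the lowest, 1, 3, 5, 2 and 4. As a description over the 15 arrays, which share experiments and fractions, the levels of the 6 genes that fell correlated with r between 0.89 and 0.99 (median 0.96). These 6 were grouped by their fall on the same arrays, which in itself raises r among them. With these 6, Laptm5 had r between 0.80 and 0.86, Csf1r between 0.73 and 0.81, and Cd14 between -0.48 and -0.37. Leaving out experiment 1 moved the 8c against 2c differences of the 6 genes to between -3.41 and -1.28; the direction held, and Lyz2 alone passed. The difference between 8c and 2c was not found to depend on age: 0 of the 9 genes, and 0 of all features, passed the interaction with the weeks of age (0 of the 9 with an unadjusted p under 0.05), with ages confounded with experiments.

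**Figure D3:**
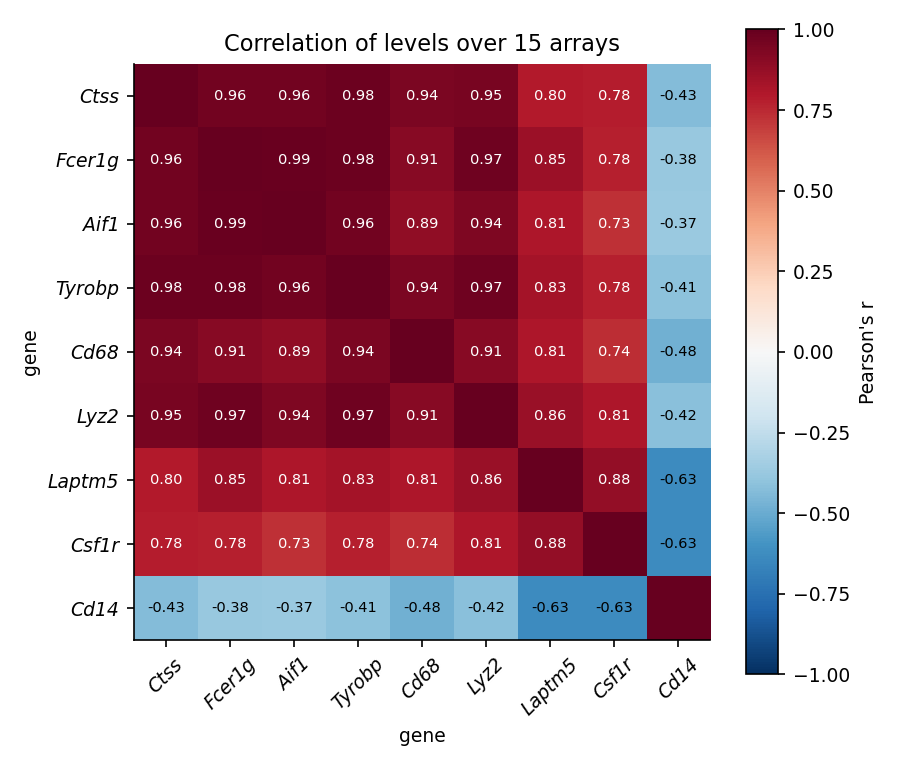
Pearson's r of the levels of each pair of tested genes (both axes) over the 15 arrays, from -1 (blue) to 1 (red). The block of 6 genes from Ctss to Lyz2, grouped by their fall on the same arrays, has r of at least 0.89. Laptm5 and Csf1r have lower values with them, and Cd14 has negative ones.

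Other transcripts followed the same profile. The 6 named genes with the highest correlation to the mean of the 9, each centred on its own mean, were Arhgdib (r = 0.99), Ifitm1 (0.99), Cyba (0.98), Cd5l (0.98), Anxa3 (0.98) and Plac8 (0.98), over 15 arrays that share experiments and fractions. Arhgdib encodes a GDP-dissociation inhibitor of blood cells, Cyba a subunit of the phagocyte oxidase, and Cd5l a secreted protein of macrophages. Arhgdib, Cd5l and Plac8 were tested only because of 2c, so the filter partly sets their profile. With summed levels of tested markers, the mean of the 9 genes had r of 0.97 for sinusoidal, 0.96 for stellate and 0.96 for Kupffer cells. It had r of 0.60 for monocyte and dendritic cell, 0.25 for neutrophil, 0.145 for acinar, 0.08 for T, NK and B cell and 0.02 for hepatocyte markers. Of the tested markers, 4 of 6 sinusoidal, 3 of 7 stellate and 4 of 8 Kupffer ones entered only because of 2c. The filter thus partly sets these high values. The neutrophil and the T, NK and B cell values rest on 2 and 4 tested markers, not all well above background on each array.

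The partners of these genes in their pathways were mostly dim on the arrays. Of 20 listed receptors that pair with Tyrobp or Fcer1g, 17 were on the array and 2 were tested; 1 fell, the Fc receptor gene Fcgr1a, at least 6.18-fold lower in 8c (adjusted p = 0.0372 with limma), and 9 were above background on no array. Of 24 kinases, adaptors and phosphatases of immunoreceptor signalling, 6 were tested and 2 fell, among them Arhgdib, at least 3.93-fold (adjusted p = 0.0171). Of the 10 arrays other than 2c, Fcgr1a exceeded background clearly on 1 and Arhgdib on 2, so both entered the test only because of 2c. Of 9 tested partners of CSF1R and CD14, 1 fell, the growth factor gene Csf1, by 1.43-fold (log2 difference -0.52, SE 0.10, adjusted p = 0.028). Of 8 tested myeloid transcription factors, 0 passed for 8c against 2c (2 had an unadjusted p under 0.05, limma). For 4c against 2c, 1 of the 8 passed as lower (3 unadjusted, limma). The brightest, Cebpa, which hepatocytes express too, differed by 0.12 (SE 0.08) for 8c against 2c. No gene of these 4 lists passed as higher in 8c.

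Lysosomal genes that most cells express had smaller differences. Of 33 such genes on the array, all of them tested, 0 passed in any of the 3 comparisons (limma; 6 had an unadjusted p under 0.05 for 8c against 2c), and the median 8c against 2c difference was -0.12. The brightest, the cathepsin gene Ctsb, differed by -0.05 (SE 0.07). Their summed log2 level was 6.94 to 7.15 on the 2c arrays, 6.90 to 7.09 on the 4c arrays and 6.94 to 7.0 on the 8c arrays, so the groups overlapped. Of 3 tested inhibitors of cysteine proteinases, 0 passed in any comparison (limma; 1 had an unadjusted p under 0.05 for 4c against 2c and 0 for 8c against 2c), and Cst3 differed by 0.15 (SE 0.09) for 8c against 2c.

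Markers of other liver cells moved with the 6 genes. Of 15 Kupffer cell markers on the array, 8 were tested and 6 of these fell from 2c to 8c, but 4 of the 6 were tested only because of 2c, as C1qa was. Of the 4 other tested markers 2 fell. Clec4f, a lectin restricted to Kupffer cells, was at least 30.5-fold lower and the complement gene C1qb at least 16.9-fold, and C1qa was at least 11.6-fold lower. The summed log2 level of all 15 was 0.30 to 3.93 in 2c, -1.86 to -0.22 in 4c and -2.05 to -0.33 in 8c, and it was highest on the 2c array of experiment 1. Of the 15 markers, tested or not, 8 to 14 were well above background on a 2c array, 4 or 5 on a 4c array and 2 to 7 on an 8c array. The scavenger receptor gene Marco, 1 of the 15 markers, was well above background on 0 of 15 arrays; it was chosen after its values were seen. Of 7 tested stellate cell markers 5 fell, among them Colec11, at least 26.5-fold, Bgn, 29.2-fold, and Lrat, at least 6.06-fold; 3 of the 5, Lrat included, were tested only because of 2c. The summed level of the 12 stellate markers on the array was 0.14 to 3.34 in 2c and -1.97 to -0.24 in 8c. Of 6 tested sinusoidal endothelial markers 3 fell, Kdr at least 13.8-fold, Lyve1 at least 4.07-fold and Tek at least 3.90-fold, and Lyve1 and Tek were tested only because of 2c. The summed level of the 9 sinusoidal markers was -1.91 to 0.78 in 2c and -4.02 to -2.08 in 8c. The part of any of these cells in the levels of the 9 genes was not tested.

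In the remaining lists few genes passed. Of 5 tested monocyte and dendritic cell markers 1 fell, Plac8, at least 6.19-fold and tested only because of 2c. Of 12 neutrophil markers on the array, 2 were tested and 5 were above background on no array. Of 17 markers of T, NK and B cells on the array, 4 were tested and 9 were above background on no array. Of these tested markers, 0 passed in any comparison. Unadjusted, 0 had a limma p under 0.05 for 8c against 2c, and 1 neutrophil marker had for 4c against 2c. The brightest neutrophil marker, Lcn2, differed by -0.30 (SE 0.20) for 8c against 2c, and Cd3d by -0.08 (SE 0.21). The summed level of the T, NK and B cell markers was highest on the 4c array of experiment 3 (-1.37). There, only 2 of the 4 tested markers were well above background. Their median level was -5.77, below the -3.97 of the 4c array of experiment 5, so the sum rests on few genes. On that array of experiment 3 Laptm5 and Csf1r were above their own 2c array, and a link between these values was not tested. Of 12 hepatocyte markers 1 fell, Cyp2e1, by 1.42-fold (adjusted p = 0.0297 with limma), while Alb differed by -0.15 (SE 0.14). Of 12 acinar markers 0 passed in any comparison, and their summed level ranged from 3.73 to 9.98. Unadjusted, 0 of them had a limma p under 0.05 for 8c against 2c, 1 for 4c against 2c and 1 for 8c against 4c. Without the 6 arrays with acinar transcripts the median difference of the 9 genes was -1.28, and 0 of the 9 and 0 of all features passed with limma (6 of the 9 had an unadjusted p under 0.05, and Ctss stood at -3.50 with an adjusted p of 0.571).

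**Figure D4:**
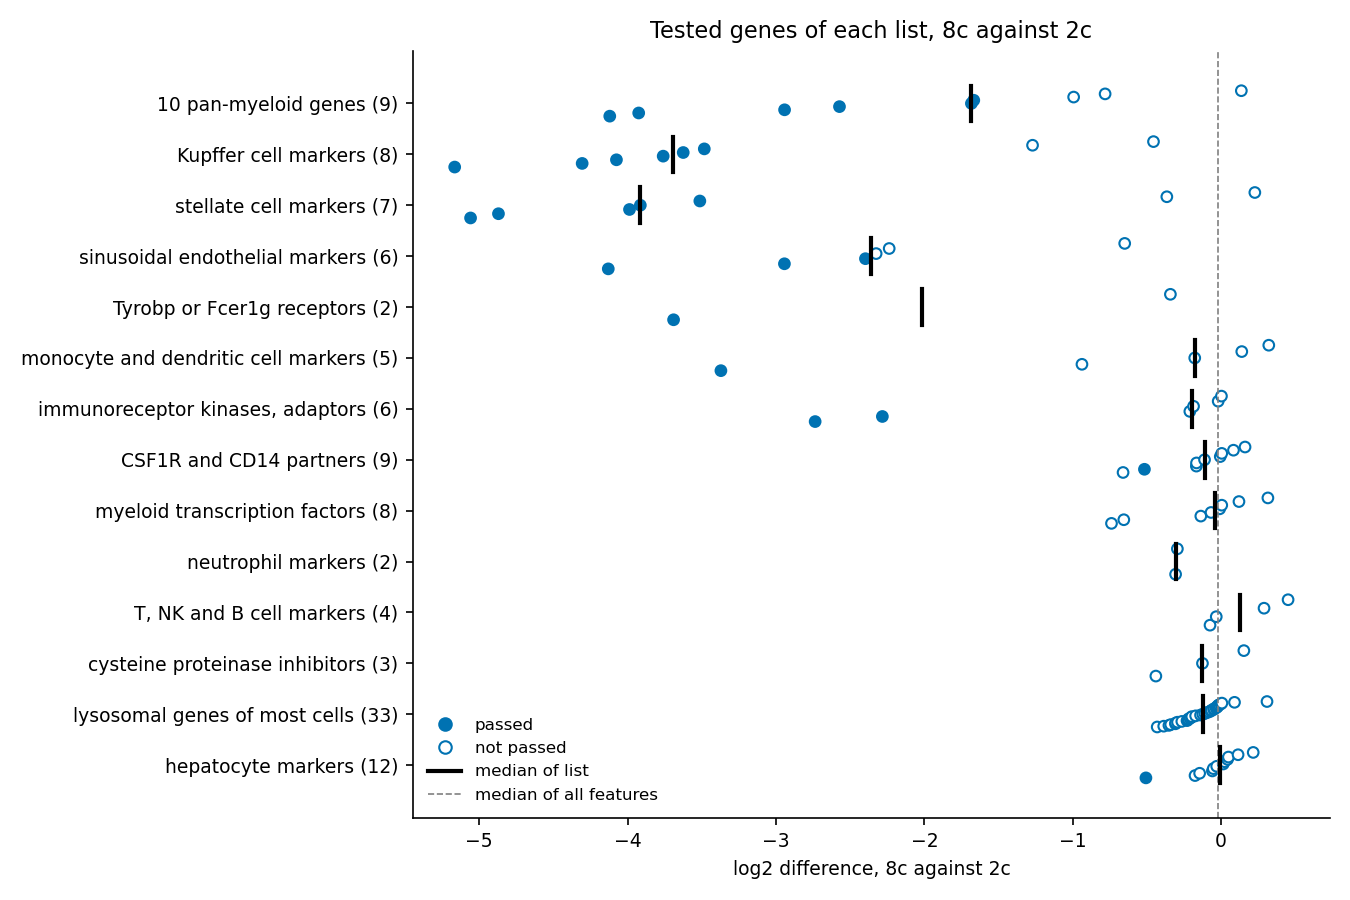
Log2 difference between 8c and 2c (x axis) of the tested genes of each list (y axis, number of tested genes in brackets, acinar markers not drawn), with filled points for genes that passed and a bar at the median. The myeloid genes, with a median of -1.68, share the left of the plot with the Kupffer, stellate and sinusoidal markers, of which 4 of 8, 3 of 7 and 4 of 6 were tested only because of 2c, while the 33 lysosomal genes of most cells lie near the median of all features.

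**Figure D5:**
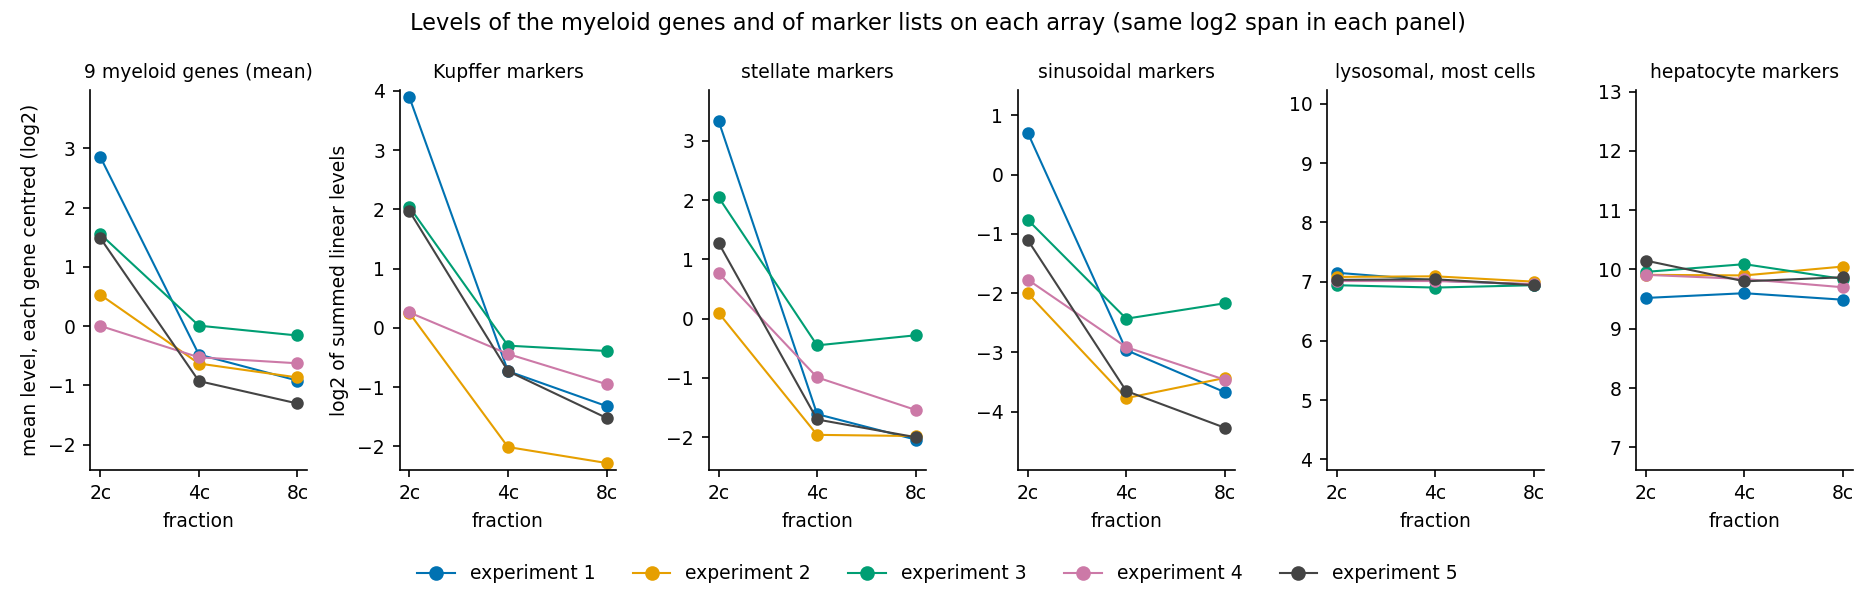
Mean level of the 9 tested myeloid genes, each centred on its own mean, and the log2 summed level of the tested genes of 5 lists (y axes, with the same log2 span) by fraction (x axis) and experiment (lines). The myeloid genes and the Kupffer, stellate and sinusoidal lists were highest in 2c in each experiment, with experiment 1 on top among the 2c arrays. Of these genes 1 of 9, 4 of 8, 3 of 7 and 4 of 6 were tested only because of 2c, which partly sets this pattern. The lysosomal and hepatocyte lists ran level at about 7 and 10.

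RefSeq promoters (build GRCr8) were at hand for 7 of the 10 genes, and 3 whose transcripts fell are shown with Laptm5, which did not pass. The 250 bases before the annotated start were searched on both strands for GAGGAA, the core of sites bound by the myeloid factor PU.1. They were also searched for GAGGAAGT, which contains it, and for the letters TATAAA. The letters GAGGAA were present in 7 of the 7 promoters, against 23.2% of 27457 windows of the same length. GAGGAAGT was present in 1, that of Ctss, against 2.04%, and TATAAA in 2, those of Ctss and Laptm5, against 13.1%. Both TATAAA matches lie near the end of the window that is farthest from the start. Capitals mark the match of GAGGAA nearest to the start, written as TTCCTC where it lies on the other strand, at 15, 46, 27 and 63 bases before the start in the order printed. These matches are a description of the letters and not of binding. The windows are chr2:185775146-185775395 (plus strand), chr7:54798012-54798261 (minus), chr10:54882442-54882691 (minus) and chr5:148371630-148371879 (plus).
Ctss promoter: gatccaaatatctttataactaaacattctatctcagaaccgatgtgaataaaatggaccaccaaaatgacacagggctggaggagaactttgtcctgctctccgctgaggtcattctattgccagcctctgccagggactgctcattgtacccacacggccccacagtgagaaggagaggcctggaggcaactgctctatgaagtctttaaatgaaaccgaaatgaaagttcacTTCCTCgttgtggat
Lyz2 promoter: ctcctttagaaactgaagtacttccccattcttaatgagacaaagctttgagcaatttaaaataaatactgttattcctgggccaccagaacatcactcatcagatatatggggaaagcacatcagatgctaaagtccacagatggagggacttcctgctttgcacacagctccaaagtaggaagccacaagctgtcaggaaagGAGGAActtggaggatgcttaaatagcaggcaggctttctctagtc
Cd68 promoter: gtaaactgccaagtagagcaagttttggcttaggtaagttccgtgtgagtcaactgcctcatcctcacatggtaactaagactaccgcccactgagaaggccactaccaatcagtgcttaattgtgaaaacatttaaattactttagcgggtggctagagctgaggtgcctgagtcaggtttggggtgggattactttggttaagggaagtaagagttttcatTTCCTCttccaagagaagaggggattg
Laptm5 promoter: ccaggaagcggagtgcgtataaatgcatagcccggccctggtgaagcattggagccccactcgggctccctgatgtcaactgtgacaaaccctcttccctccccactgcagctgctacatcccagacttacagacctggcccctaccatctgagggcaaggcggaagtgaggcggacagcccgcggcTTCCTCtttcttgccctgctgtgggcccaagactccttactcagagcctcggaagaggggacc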

How the data were processed

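RNA of sorted 2c, 4c and 8c rat hepatocytes was measured on 15 one-colour arrays (n = 5 per fraction). The deposited scanner files give spot intensity (linear), processed by Agilent Feature Extraction 11.5.1.1 per the file headers (10.7.3.1 per the submitters' processing notes), background-subtracted and without scaling between arrays. The deposited value table holds the same linear intensity per probe. Of 62976 spots per array, 4259 control spots and 264 to 539 outlier spots were left out, and no spot was saturated (0 on every array). Spots of a probe were averaged, taken to log2 and scaled by the 75th percentile over probes well above background on all arrays. Probe positions are those of the rn4 assembly given in the files, and no annotation of that build was at hand, so exon or UTR are not stated.

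A feature was tested if well above background on at least 5 of 15 arrays, with the brightest probe for each gene (17055 features). Linear models were fitted with limma 3.58.1 in R 4.3.3, with the fraction as group and the experiment as block, two-sided, with Benjamini-Hochberg adjustment over all features; tables were made with Python 3.11.15. The pairing comes from the labels, which give the 3 fractions of an experiment 1 number and age. After the group means were removed, the 15 pairs of arrays from the same experiment correlated with a median of 0.585 (0.038 to 0.789), against -0.164 for 90 pairs from different experiments. Nothing states that the experiments used separate animals beyond being independent, so p values measure the spread between them.

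The genes and lists were chosen with earlier results of these data known. Named are all 10 genes, up to 3 genes of each of 14 other lists that passed for 8c against 2c (by size), or else the brightest tested one, always Alb, and the 6 genes most like the mean of the tested ones. On simulated data with 17045 features, 8c against 2c recovered 41.8% of genes changed by log2 0.5, 68.7% by 1 and 90.9% by 2, with 3 of 137 calls on unchanged genes and 0 calls with no change. The 20 alternatives covered scaling, background correction, the filter, dim arrays, the probe for a gene, the deposited table, the block, slides, arrays with acinar transcripts and each experiment left out; 1 of them, without the 2c array of experiment 1, was chosen after the data were seen. The result for 1 listed gene that passed is not reported here.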

Additional observations from a re-analysis of the deposited data

Results flagged for a closer look

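Among 30 groups of 5 arrays (the 9 tested genes and Ptprc in 3 fractions), 4 held 1 array that stood far from the others by Dixon's criterion for 5 values (0.71 of the range); chance gives about 1 in 20 groups. Lyz2 was -5.30 on the 8c array of experiment 3, against -5.88 for the next. Laptm5 was -3.58 on the 8c array of experiment 2, against -4.04. Csf1r was -3.30 on the 2c array of experiment 1, against -4.51, and without that array its 8c against 2c difference went from -0.78 to -0.46. Ptprc was -5.60 on the 8c array of experiment 2, against -8.18, and was not well above background on either. The cause of these values was not tested.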

How the results depend on the processing

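For the genes that passed, the 194 values under the alternatives all kept their direction, and 74 of them passed. For 8c against 2c the 6 genes lower in 8c were still 6 under the other scalings, dim arrays at their floor, the mean of a gene's probes and the deposited table. The count was 0 with normexp, 2 without a filter (36180 features tested) and 2 when only probes above background on all 15 arrays entered (5 of the 9 genes tested). It was 0 without the replicate block, 1 with the slide as block, 0 within slide 1, 0 within slide 2 and 0 without the 6 arrays with acinar transcripts. Leaving out 1 experiment gave 0 to 6 (0 without experiment 3 or 5, 1 without 1, Lyz2, or 2, Aif1, and 6 without 4), and 6 without the 2c array of experiment 1. For 4c against 2c the main count of 4 became 2 with the percentile over all probes, 1 with the median, 1 with quantile normalization, 0 with normexp, 0 without a filter, 2 with probes above background on all arrays, 1 with dim arrays at their floor, 0 without the replicate block, 0 with the slide as block, 0 within slide 1, 0 within slide 2, 0 without the acinar arrays and 0 to 3 without 1 experiment; it was 1 without the 2c array of experiment 1. The cause was not tested, except that several of these settings hold fewer samples. The median 8c against 2c difference ranged from -2.16 (within slide 1) to -0.92 (normexp).

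Among differences that did not pass, Cd14 for 4c against 2c (0.0197) turned to -0.0429 within slide 1, -0.0789 without the acinar arrays, -0.0262 without the 2c array of experiment 1 and, without 1 experiment, ranged from -0.0296 to 0.14, below 0 without experiment 1, 2 (-0.00506) or 4. Cd68 for 8c against 4c (-0.04) turned to 0.0578 with the slide as block, 0.0497 within slide 2, 0.13 without the acinar arrays and, without 1 experiment, ranged from -0.0872 to 0.0287, above 0 without experiment 2. Csf1r for 8c against 4c (-0.12) turned to 0.19 within slide 2, 0.0187 without the acinar arrays, and, without 1 experiment, ranged from -0.33 to 0.0815, above 0 without experiment 1 (0.0443) or 3. The other results for 8c against 4c and for age stayed at 0 calls, and the age term could not be fitted within slide 2.

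Over all features, 266 were lower and 138 higher in 8c than in 2c. The split was 192 and 225 with the percentile over all probes, 216 and 187 with the median, 202 and 177 with quantile normalization, 117 and 66 with normexp, 33 and 6 without the replicate block, 155 and 74 without a filter and 144 and 75 with probes above background on all arrays. Signal over background limits Ctss, Fcer1g, Lyz2 and Aif1 in 8c, where 9 of 45 readings of the 9 genes were not well above background, and Ptprc in all fractions.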
